A study of Mus musculus with 30 samples.

Results

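The p53 pathway was followed through 30 listed genes: Trp53, which encodes the p53 protein, and 29 genes known as p53 targets or partners. The list was given by name, and all 30 genes were present in both gene tables used here and passed the filter on low counts there (18418 genes tested in mTEChi, 17923 in B6 Aire-GFP+ cells). Medullary thymic epithelial cells (mTECs) of female C57BL/6J mice aged 4 to 6 weeks were profiled by Smart-seq2 from 1000 sorted cells per library. The mTEChi cells, the MHC class II high mTECs, came in 8 groups of 2 libraries. These were WT and Aire-KO mice injected with PBS or spermidine, WT mice injected with topotecan or its DMSO control, and mice of the genotypes Foxn1-cre,Nfe2l2+/+ and Foxn1-cre,Nfe2l2 fl/fl, both of which carry a Cre driven by the thymic epithelial gene Foxn1. Aire-GFP+ mTECs, sorted on a fluorescent Aire reporter, came from 3 WT and 2 Aire-KO libraries without treatment. Injections were intraperitoneal, and the sources used here give no dose, number of injections or time to sorting. Of the 30 libraries of the series, 21 are used and 9 (F1 and NOD Aire-GFP+ cells) are not analysed here.

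p53 is a transcription factor that is kept scarce by the ubiquitin ligase Mdm2, itself a p53 target, so that the pair forms a feedback loop. DNA damage and other stresses stabilise the p53 protein, and p53 then switches on genes that halt the cell cycle (Cdkn1a, Btg2, Gadd45a), favour death through mitochondria (Bax, Bbc3, Pmaip1) or through death receptors (Fas, Tnfrsf10b), repair DNA (Xpc, Ddb2) and restrain growth signalling (Sesn1, Sesn2). Topotecan traps topoisomerase I on DNA, and the strand breaks that follow in replicating cells are a classical trigger of p53. Aire, the regulator that lets mTECs express genes of peripheral tissues, has been tied to DNA breaks and topoisomerases. p53 itself is controlled mostly as a protein, which RNA libraries do not show.

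Promoter windows in the RefSeq table (GRCm38.p6, 250 bases before to 50 after a gene's start) covered 22 of the 30 genes. Perp, Ddb2, Tnfrsf10b, Pmaip1, Xpc, Trp53inp1, Zmat3 and Rrm2b had none. The p53 decamer, searched on both strands, lay in the windows of 10 of these 22 genes (Trp53, Mdm2, Cdkn1a, Ccng1, Gadd45a, Bax, Aen, Ei24, Polk and Sesn1) and in those of 9.55% of all 27025 genes of the table, or 8.36% of all 32851 windows. A pair of decamers with a spacer of 0 to 13 bases lay in Cdkn1a alone among the 22, and in 0.0731% of all windows. The first 250 bases of 4 windows are shown 5′ to 3′ on the gene's strand, ending just before the start, with the decamers in capitals. Cdkn1a, Mdm2 and Bax are the arrest, feedback and death genes most used as p53 readouts, and Plk2 is the 1 list gene that passed the test with topotecan. 
Cdkn1a, chr17:29090729-29090978, plus strand: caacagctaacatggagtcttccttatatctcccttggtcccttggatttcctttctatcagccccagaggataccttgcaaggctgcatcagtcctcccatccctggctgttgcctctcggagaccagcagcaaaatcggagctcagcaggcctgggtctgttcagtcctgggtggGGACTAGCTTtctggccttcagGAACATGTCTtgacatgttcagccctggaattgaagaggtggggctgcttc
Mdm2, chr10:117710759-117711008, minus strand: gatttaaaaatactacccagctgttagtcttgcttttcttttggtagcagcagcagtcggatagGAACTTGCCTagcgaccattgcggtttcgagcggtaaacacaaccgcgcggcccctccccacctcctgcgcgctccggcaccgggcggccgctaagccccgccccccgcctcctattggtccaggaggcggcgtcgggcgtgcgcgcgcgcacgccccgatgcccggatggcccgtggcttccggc
Bax, chr7:45466899-45467148, minus strand: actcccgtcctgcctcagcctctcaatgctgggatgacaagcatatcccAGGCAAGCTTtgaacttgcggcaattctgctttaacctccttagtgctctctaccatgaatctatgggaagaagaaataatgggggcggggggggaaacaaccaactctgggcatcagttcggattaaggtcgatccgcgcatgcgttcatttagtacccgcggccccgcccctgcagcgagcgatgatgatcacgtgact
Plk2, chr13:110394794-110395043, plus strand: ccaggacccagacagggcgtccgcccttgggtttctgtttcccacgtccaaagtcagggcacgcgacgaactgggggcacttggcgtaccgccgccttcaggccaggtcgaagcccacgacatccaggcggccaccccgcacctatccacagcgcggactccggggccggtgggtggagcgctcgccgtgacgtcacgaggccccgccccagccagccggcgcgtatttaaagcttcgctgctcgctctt
In Cdkn1a the decamers begin 73 and 51 bases before the upstream of its annotated starts, with 12 bases between them. The Mdm2 and Bax windows hold 1 decamer each, beginning 186 and 201 bases before the start, and the Plk2 stretch holds none. These are matches of letters in a short window. The known p53 sites of Mdm2, which lie in an intron, are outside it.

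The list genes spanned a wide range of levels before any comparison. In WT Aire-GFP+ cells, as TPM, a level per transcript length, Cdkn1a was highest at 220 ± 18.5 (SD, n = 3), at the 97.6th percentile of genes with signal. Fas followed at 203 ± 15, and the sugar reductase Dcxr at 199 ± 8.15. These 3 did not differ beyond their spread. Trp53 (159 ± 20.9), Bax (146 ± 17.2) and Perp (123 ± 17.9), a membrane protein of epithelial junctions, came next, and neighbours among them did not differ beyond their spread either. A gap larger than the spread separated Perp from the death activator Pmaip1 (65.8 ± 6.7) and Mdm2 (54 ± 7.97). At the low end stood Bbc3, which encodes the death activator Puma, at 3.16 ± 0.86 TPM, the kinase Plk3 at 2.07 ± 0.0754 and the mTOR inhibitor Ddit4 at 1.1 ± 0.399. The p53 readouts were therefore not all alike in depth: in the mTEChi libraries Bbc3 was counted at as few as 7 reads and Plk3 at as few as 9, against at least 406 for Cdkn1a and 371 for Mdm2.

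**Figure D1:**
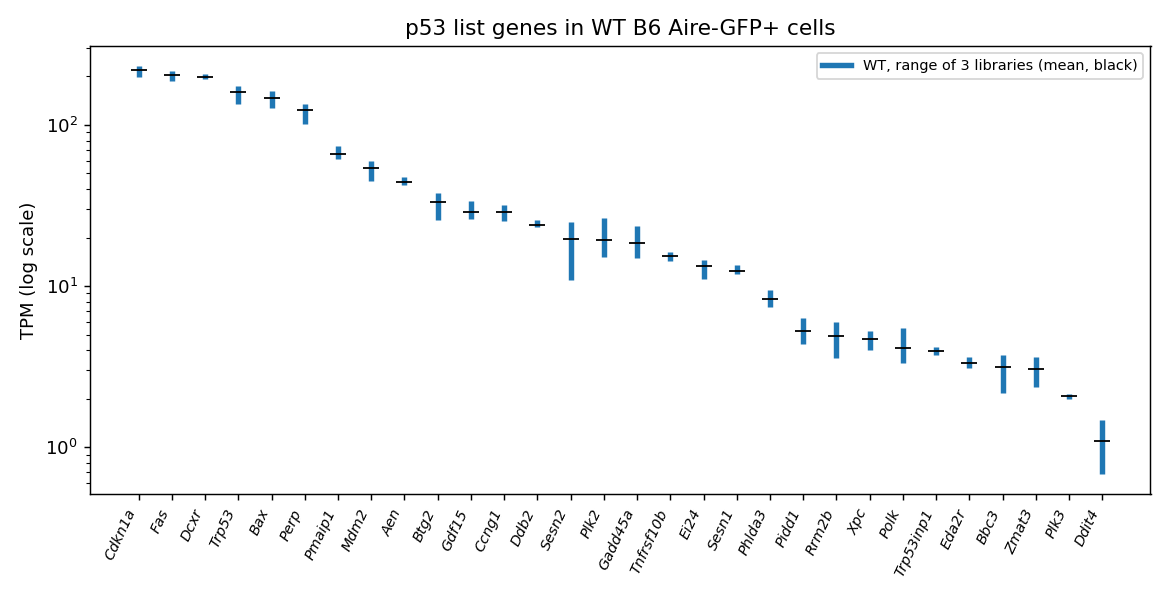
Level of each list gene in WT B6 Aire-GFP+ cells in TPM on a log scale; bars span the 3 libraries and black marks are means. The genes run from Cdkn1a at 220 TPM to Ddit4 at 1.1 TPM.

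Levels below are CPM, counts scaled per library size with TMM factors, and folds are log2 fold changes with standard errors from edgeR's quasi-likelihood test, adjusted over all genes of a table by Benjamini-Hochberg. A gene was called at an adjusted p under 0.05. The labels do not say whether replicates came from separate mice, so p-values measure the spread between libraries, which may be technical. Library totals were 2027205 to 5724045 counts in mTEChi and 6577151 to 12612775 in Aire-GFP+ cells. Aire reads were present in every Aire-KO library (4096 to 5075 CPM in mTEChi against 1621 to 1814 in their WT controls, and 1508 to 1774 against 1603 to 1686 in Aire-GFP+ cells), so gene counts do not check the deletion. Likewise Nfe2l2 stood at 86.6 to 105.5 CPM in flox and 90.7 to 91.4 in wt libraries. In bulk libraries fewer cells of a type and less RNA per cell cannot be told apart. Among the mTEC markers the chemokine gene Ccl21a, which has near-identical copies, was at 0 in all DMSO and topotecan libraries.

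Topotecan was compared with DMSO to see how WT mTEChi cells respond to the drug. Of the 30 list genes 1 was called, the polo-like kinase gene Plk2, against 0.652% of all 18418 genes tested (36 higher, 0.195%, and 84 lower, 0.456%). The median log2 change of the list was -0.07, and that of all genes 0.01. At an unadjusted p under 0.05, 3 list genes were higher (Plk2, Polk and Plk3) and 8 lower (Gdf15, Tnfrsf10b, Trp53, Fas, Sesn2, Pidd1, Pmaip1 and Aen), against 13.9% of all genes in either direction. The libraries of the treatments did not overlap for 17 of the 30 genes (56.7%, of which 6 higher and 11 lower), against 39.7% of all genes. In counts simulated for this comparison, the test called 11 of 100 genes changed 2-fold and 75 of 100 changed 4-fold. The changed genes were drawn from all genes above a low level, with the same spread for every gene. These shares therefore do not describe the depth and spread of the list genes in particular. A gene without a call may therefore still have changed 2-fold, unless its interval leaves that out.

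Plk2 (chr13:110395046-110400844, mm10), a kinase of the cell division family, stood at 76.6 and 71.5 CPM with DMSO and at 152.7 and 145.2 with topotecan. Both topotecan libraries were above both controls, at 2.01-fold (log2 1.01 ± 0.21 SE, adjusted p = 0.044). The call was lost on leaving out any 1 of the 4 libraries: adjusted p was 0.157 and 0.173 without DMSO replicates 1 and 2, and 0.104 and 0.0895 without topotecan replicates 1 and 2. It was also lost in limma-voom (0.0514) and in a fit of these 4 libraries alone (0.2), at log2 changes of 0.92 to 1.05. The topotecan libraries were the highest of the 16 mTEChi libraries, above both WT PBS (139.8 and 98 CPM) and both Nfe2l2 wt libraries (106.7 and 88.2), and the DMSO libraries were below both groups. Plk3, a second kinase of the family, stood at 4.3 and 4.21 CPM with DMSO and 6.29 and 12.1 with topotecan (log2 1.11 ± 0.477, adjusted p = 0.32).

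The core of the feedback loop did not pass the test. Trp53 stood at 223.9 and 214.8 CPM with DMSO and 156.7 and 167.5 with topotecan, with both treated libraries below both controls (log2 -0.44 ± 0.165, adjusted p = 0.254). Mdm2 stood at 180.1 and 125.3 CPM with DMSO and 202.4 and 156.4 with topotecan, and its groups overlapped. The 95% interval of its log2 change ran from -0.27 to 0.73.

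Among the arrest genes Cdkn1a, the p21 cell cycle inhibitor, stood at 194.1 and 173.6 CPM with DMSO and 225.6 and 179 with topotecan. Its groups overlapped, and the interval of the log2 change (-0.23 to 0.5) leaves out a rise of 2-fold. Ccng1, the p53-induced cyclin G1, stood at 170.3 and 147.5 CPM with DMSO and 138.1 and 180.9 with topotecan. Btg2, an antiproliferative gene, and Gadd45a, a growth arrest gene, gave log2 changes of 0.29 and -0.47 with adjusted p of 0.637 and 0.755.

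No death gene passed the test. Bax, the pore former of the mitochondrial membrane, stood at 77.4 and 67 CPM with DMSO and 81.5 and 60.2 with topotecan (log2 interval -0.42 to 0.36). Bbc3 stood at 4.3 and 3.93 CPM with DMSO and 8.61 and 2.23 with topotecan, and at this depth its interval (-0.95 to 1.73) allows a change of more than 2-fold upward. Pmaip1, which encodes Noxa, stood at 90.9 and 141.6 CPM with DMSO and 89.1 and 75.2 with topotecan (log2 -0.5 ± 0.219, adjusted p = 0.325). None of the 3 moved beyond the spread between libraries by the adjusted test. The death domain gene Pidd1 (log2 -1) and the nuclease gene Aen (-0.6) had adjusted p of 0.319 and 0.354, and the other 4 death genes, Perp, Trp53inp1, Ei24 and Phlda3, had log2 changes of -0.2 to 0.42. The death receptor genes Tnfrsf10b, Fas and Eda2r had log2 changes of -0.84, -0.42 and -0.24, with adjusted p of 0.237, 0.277 and 0.883.

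Repair and stress genes went either way without a call. The translesion polymerase Polk was at 29.2 and 23.3 CPM with DMSO and at 39.7 and 49 with topotecan (log2 0.76 ± 0.251, adjusted p = 0.187), and Xpc, Ddb2 and the ribonucleotide reductase subunit Rrm2b lay between -0.33 and 0.34. Gdf15, a secreted stress cytokine, stood at 9.17 and 11.2 CPM with DMSO and 2.98 and 6.37 with topotecan (log2 -1.11 ± 0.396, adjusted p = 0.217). Both treated libraries were the lowest of the 16 mTEChi libraries for Gdf15, and both DMSO libraries were the next lowest. Its lowest count in mTEChi was 9 reads, so this value is limited by depth. Sesn2 (-0.62) and Sesn1 (-0.53), the sestrins, and Ddit4 (0.71) had adjusted p of 0.282, 0.476 and 0.403.

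**Figure D2:**
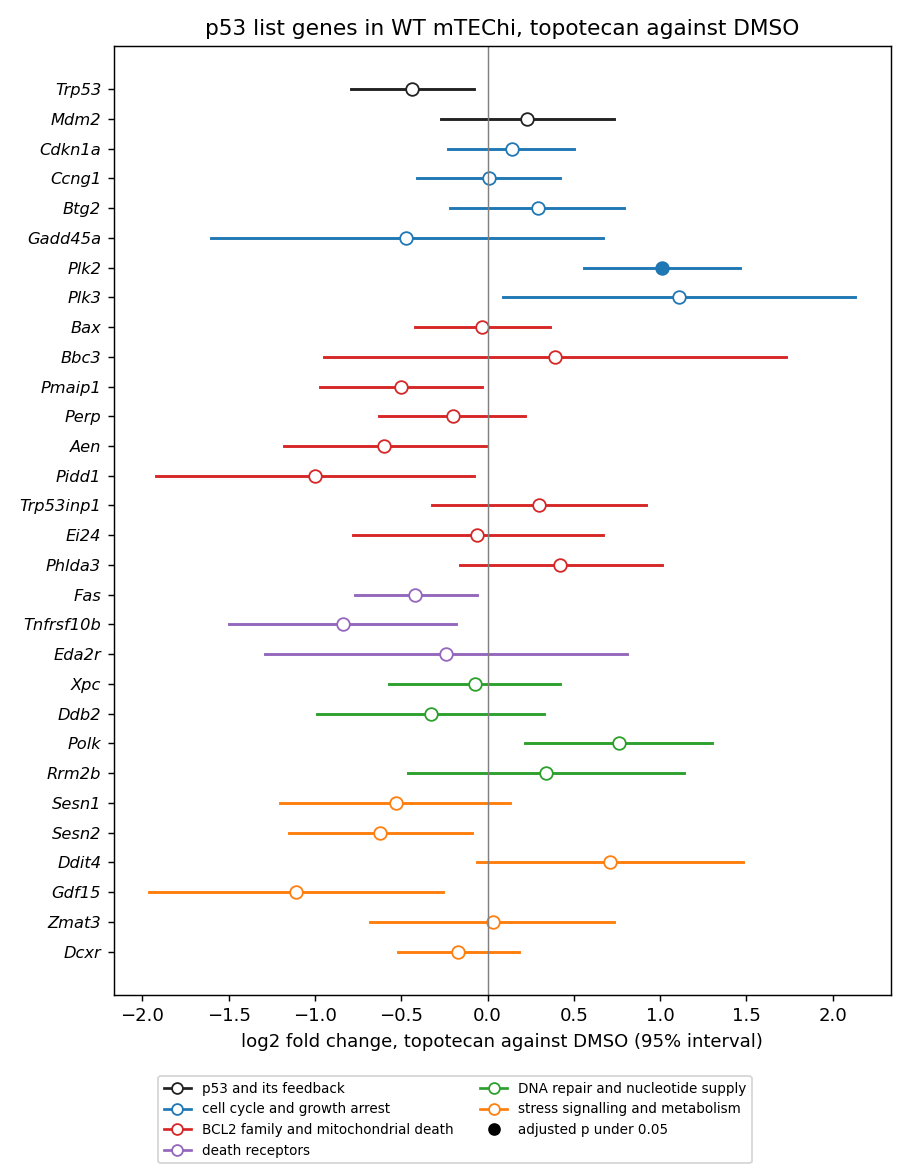
log2 fold change of each list gene, topotecan against DMSO in WT mTEChi cells, with 95% intervals; colours give the roles and the filled point is the gene with an adjusted p under 0.05. Plk2 stands at 1.01, and the intervals of Cdkn1a, Mdm2 and Bax include 0.

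Other lists around p53 gave no call either. Among 24 tested further p53 targets, 0 were called with topotecan, with 1 higher and 5 lower at an unadjusted p under 0.05 and a median log2 change of -0.15. None of 21 tested regulators upstream of p53 and none of 15 BCL2 family and caspase genes was called (0 and 0), with 2 and 1 genes lower at an unadjusted p under 0.05. The proliferation list of 20 genes had 0 calls, 8 genes lower and 0 higher at an unadjusted p under 0.05, and a median of -0.63. The share of all genes at an unadjusted p under 0.05 was 13.9% in either direction. Outside these lists Aire fell from 1500 and 1180 CPM to 818.8 and 640.5 (log2 -0.88 ± 0.136, adjusted p = 0.0125). The Aire call was lost without DMSO replicate 1 (0.0784) and in a fit of these 4 libraries alone (0.288). Top1, which encodes the drug's target, stood at 94.9 and 85.2 against 100.7 and 118.5 CPM (adjusted p = 0.473). Both treated libraries lay on 1 side of both DMSO libraries for 3 of 8 marker lists. The mTEC markers summed to 20892 and 19765 CPM with DMSO and to 17194 and 16129 with topotecan, with 2 genes called lower, Aire and the MHC class II gene H2-Ab1 (log2 -0.35 ± 0.0608, adjusted p = 0.0202). The H2-Ab1 call was lost without DMSO replicate 1 (0.119) or topotecan replicate 2 (0.0603), and in the fit of these libraries alone (0.357). The myeloid and dendritic markers summed to 1277 and 1370 against 1656 and 1687, with 0 of 9 called, and the B cell markers to 57.1 and 82.4 against 39.7 and 56.4, with 0 of 5 called. The fibroblast markers overlapped, at 377.9 and 734.3 against 167.3 and 1398. The part of these lists in the p53 values was not tested. Gene length gave no order: over 18141 genes the rank correlation of span and log2 change was 0.03, and over the 30 list genes it was -0.1, as a description across genes that share libraries.

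Aire-KO and WT cells were compared in 3 sets of libraries that share none: mTEChi with PBS, mTEChi with spermidine, and B6 Aire-GFP+ cells. In PBS mTEChi 5 list genes were called higher and 3 lower, against 5.21 and 5.08% of all genes (10.3% in either direction). In spermidine mTEChi 5 were higher and 2 lower, against 4.77 and 4.34% (9.11%). In Aire-GFP+ cells 6 were higher and 6 lower, against 19.0 and 22.3% (41.3%), a share near that of the list. Groups did not overlap for 17, 24 and 21 of the 30 genes, against 55.3, 56.2 and 63.9% of all genes. List medians were 0.16, 0.26 and 0.21, and those of all genes -0.05, -0.04 and -0.12. In all, 5 genes were called in the same direction in all 3 sets: Bax, Dcxr and Gdf15 higher, Plk2 and Perp lower. Of all 15649 genes tested in every set 5.18% did so.

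The scaling matters for these splits. By library totals alone the median of all genes shifted to -0.24, -0.21 and -0.51, and the list split into 4 higher and 4 lower, 3 and 4, and 6 and 12. All-gene calls then split into 581 higher and 1387 lower in PBS cells (960 and 936 with TMM), 558 and 1081 in spermidine cells (879 and 799) and 1591 and 6250 in Aire-GFP+ cells (3410 and 4000). No called list gene changed sign between scalings, while Ddb2 and Sesn2 did in PBS cells, Btg2, Aen and Eda2r in spermidine cells, and 7 uncalled genes in Aire-GFP+ cells. Other measures differed with the genotype in Aire-GFP+ cells: the offset of effective from full transcript length was 205.5 to 207.3 bases in WT and 180.8 and 189.1 in Aire-KO libraries, and the myeloid and dendritic markers summed to 1037 to 1455 CPM in WT and 2462 and 2517 in Aire-KO. The myeloid sum was carried by Lyz2 (means of 1059 and 2130 CPM) and Fcer1g (45.9 and 285.8), while the list's median log2 change was -0.89, with 3 of 9 genes called higher and 3 lower. The mTEC markers summed to 68338 and 72342 CPM in Aire-KO and 31723 to 32190 in WT Aire-GFP+ cells, and to 46307 and 46958 against 24594 and 24860 in PBS mTEChi. Most of each sum came from the MHC class II genes H2-Ab1 and H2-Aa. In Aire-GFP+ cells their means were 18552 and 8364 CPM in WT, and 44586 and 18567 in Aire-KO. In PBS mTEChi they were 13115 and 6601 in WT, and 26166 and 12433 in Aire-KO. Of the 11 mTEC markers tested in Aire-GFP+ cells, 5 were called higher and 1 lower. In mTEChi the myeloid sums overlapped with PBS (1241 and 1804 in Aire-KO, 1403 and 1430 in WT) and did not with spermidine (1603 and 1835 against 1308 and 1471). The fibroblast sums overlapped in both mTEChi sets, and in Aire-GFP+ cells they were 265.2 and 344.1 in Aire-KO against 88.1 to 139.6 in WT, with 2 genes called higher and 2 lower. The part of these measures in the results was not tested.

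Bax was higher in every Aire-KO library. With PBS it stood at 66.6 and 47.5 CPM in WT and 172.3 and 155.5 in Aire-KO (2.85-fold, log2 1.51 ± 0.186, adjusted p = 0.000221). With spermidine it stood at 60.2 and 68.4 in WT and 152.5 and 143.9 in Aire-KO (2.31-fold, adjusted p = 0.00114). The lowest Aire-KO library was more than 2-fold above the highest WT library in both. In Aire-GFP+ cells it stood at 76.7, 95.1 and 84.6 in WT and 201.9 and 221.1 in Aire-KO (2.47-fold, adjusted p = 0.000216). All calls were kept on leaving out any library. Bax lies at chr7:45461697-45466898, and its nearest named coding neighbours were called higher as well. Ftl1, the ferritin light chain gene 1812 bases away, had log2 changes of 1.23, 1.06 and 1.51, and Dhdh, a dehydrogenase gene 4088 bases away, 1.68, 1.4 and 0.79. Bax also shares 915 bases with the model Gm45808 on the same strand.

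Plk2 was lower in every Aire-KO library. With PBS it stood at 139.8 and 98 CPM in WT and 32.5 and 25.6 in Aire-KO (4.12-fold lower, log2 -2.04 ± 0.231, adjusted p = 0.000134). With spermidine it stood at 126.8 and 134.5 in WT and 46.6 and 44.5 in Aire-KO (2.86-fold lower, adjusted p = 0.00089). In Aire-GFP+ cells it stood at 39.7, 33.7 and 54.7 in WT and 4.4 and 13.4 in Aire-KO (4.71-fold lower, adjusted p = 0.00454). No WT library fell into the Aire-KO range, and the calls were kept on leaving out any library. Its neighbour Gapt, 37846 bases away, was not called in any set.

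Dcxr (chr11:120725399-120727281), a reductase of sugars and carbonyls, was higher in every Aire-KO library. With PBS it stood at 131.8 and 116 CPM in WT and 279.5 and 234.9 in Aire-KO (2.07-fold, adjusted p = 0.000956). With spermidine it stood at 128.2 and 138 in WT and 202.5 and 245.4 in Aire-KO (1.68-fold, adjusted p = 0.00981). The spermidine call was lost without Aire-KO spermidine replicate 2 (adjusted p = 0.126) or WT spermidine replicate 1 (0.0895). In Aire-GFP+ cells it stood at 117.2, 123.1 and 112.8 in WT and 294.3 and 313.6 in Aire-KO (2.58-fold, adjusted p = 7.96e-05). Of its neighbours, the GTPase gene Rac3 was called higher in both mTEChi sets (log2 1.39 and 1.43) and not in Aire-GFP+ cells (0.12), and the reductase gene Cbr2 the other way about (-0.08, 0.06 and 1.15).

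Gdf15 (chr8:70629393-70632456) was higher in every Aire-KO library. With PBS it stood at 21.1 and 17 CPM in WT and 61.2 and 42.8 in Aire-KO (2.71-fold, adjusted p = 0.0126). With spermidine it stood at 13.1 and 20.6 in WT and 49.5 and 67.3 in Aire-KO (3.49-fold, adjusted p = 0.00395). The PBS call was lost without Aire-KO PBS replicate 1 (adjusted p = 0.14) or WT PBS replicate 2 (0.0911), and the spermidine call without Aire-KO spermidine replicate 2 (0.0564) or WT spermidine replicate 1 (0.0628). In Aire-GFP+ cells it stood at 28.3, 28.4 and 35 in WT and 80 and 79.6 in Aire-KO (2.61-fold, adjusted p = 0.000364).

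Perp (chr10:18845020-18857073) was lower in every Aire-KO library. With PBS it stood at 355.7 and 329.4 CPM in WT and 165.8 and 219 in Aire-KO (1.78-fold lower, adjusted p = 0.0186). With spermidine it stood at 289.3 and 396.5 in WT and 228.3 and 174.5 in Aire-KO (1.7-fold lower, adjusted p = 0.0314). The groups did not overlap, but the PBS call held in 1 of 4 fits with a library left out (adjusted p of 0.197 without Aire-KO PBS replicate 1, 0.0934 and 0.0521 without WT PBS replicates 1 and 2). The spermidine call likewise held in 1 of 4 (0.058 and 0.267 without Aire-KO spermidine replicates 1 and 2, 0.251 without WT spermidine replicate 2), and was missed by limma-voom (0.0852). In Aire-GFP+ cells it stood at 209.2, 158.2 and 205.1 in WT and 72.7 and 88.1 in Aire-KO (2.37-fold lower, adjusted p = 0.000789), and was called whichever library was left out. Perp is also a gene of stratified epithelia, and the basal keratin gene Krt5 was lower in both mTEChi sets (log2 -1.24 and -0.88). Krt5 was the 1 mTEC marker of 10 tested that was called lower there, while 7 were called higher in each set. A link between Perp and Krt5 was not tested.

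**Figure D3:**
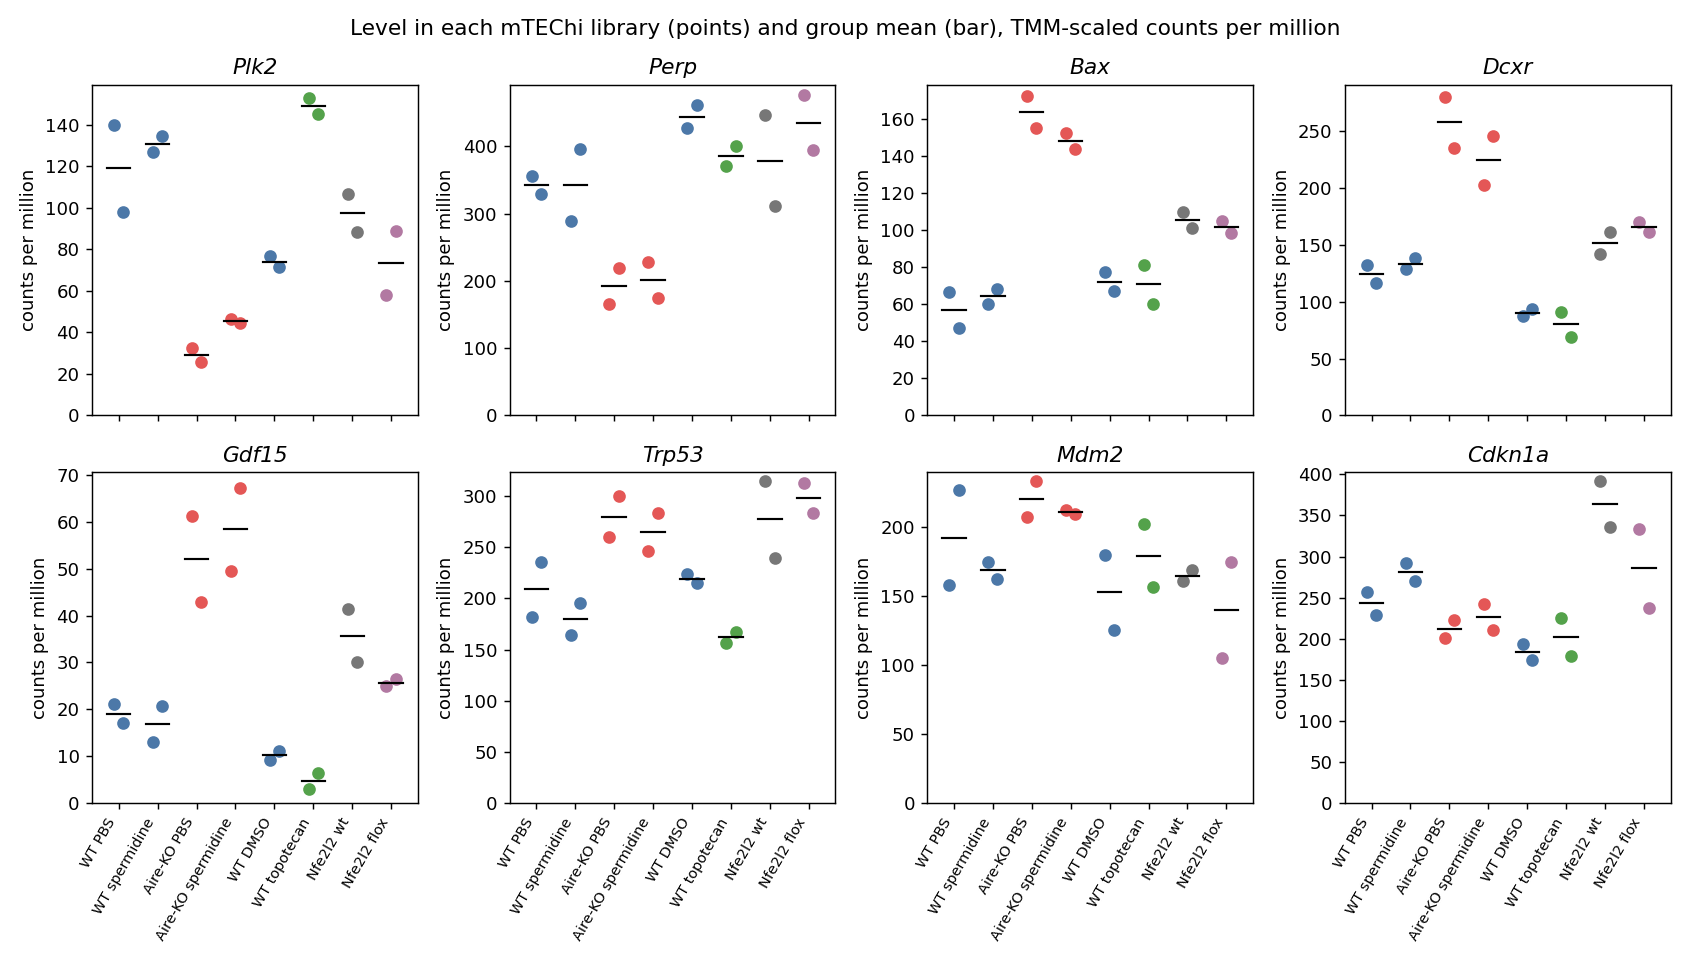
Level of 8 list genes in each of the 16 mTEChi libraries in CPM (points), with the mean of each group (bar). Plk2 and Perp are lower and Bax, Dcxr and Gdf15 higher in all 4 Aire-KO libraries than in their WT controls, and Plk2 is at 152.7 and 145.2 CPM with topotecan.

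Fas and Pmaip1 were called in PBS mTEChi and in Aire-GFP+ cells. Fas (chr19:34290666-34327772), the death receptor that lymphocytes engage, stood with PBS at 110.7 and 129.5 CPM in WT and 211.3 and 201.1 in Aire-KO (1.72-fold, adjusted p = 0.00795). That call was lost without Aire-KO PBS replicate 1 (0.0671) or WT PBS replicate 1 (0.0778). In Aire-GFP+ cells Fas stood at 208.5, 193.2 and 179.9 in WT and 360.9 and 339.1 in Aire-KO (1.81-fold, adjusted p = 0.000631), and in spermidine cells the log2 change was 0.47 (adjusted p = 0.0934). Pmaip1 (chr18:66458533-66465565) showed the largest fold of the list in Aire-GFP+ cells: 159.8, 124.4 and 136.8 CPM in WT and 20.2 and 22.4 in Aire-KO (6.56-fold lower, log2 -2.71 ± 0.164, adjusted p = 3.29e-05). In PBS mTEChi it stood at 135.8 and 146.5 in WT and 86.4 and 83.6 in Aire-KO (1.66-fold lower, adjusted p = 0.0499). That PBS call was lost without Aire-KO PBS replicate 1 (adjusted p = 0.201) or 2 (0.21), without WT PBS replicate 1 (0.123) or 2 (0.17), and in limma-voom (0.0966). In spermidine cells the log2 change was -0.68 (adjusted p = 0.0814).

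The other calls were made in 1 set each. In PBS cells the RNA-binding protein gene Zmat3 stood at 28 and 15 CPM in WT and 58.2 and 41.5 in Aire-KO (2.27-fold, adjusted p = 0.0404). It was lost without Aire-KO PBS replicate 1 (0.266) or 2 (0.0644), without WT PBS replicate 2 (0.252), by library totals alone (0.076) and in limma-voom (0.0914). In spermidine cells Tnfrsf10b, the TRAIL receptor, stood at 21.2 and 23.2 in WT and 48.6 and 53.8 in Aire-KO (2.3-fold, adjusted p = 0.0273). Leaving out Aire-KO spermidine replicate 1 or 2 gave adjusted p of 0.1 and 0.158, leaving out WT spermidine replicate 1 or 2 gave 0.161 and 0.109, and library totals alone and limma-voom gave 0.0546 and 0.0686. Trp53 itself stood in spermidine cells at 164.3 and 195.9 CPM in WT and 246.7 and 283.7 in Aire-KO (1.47-fold), with an adjusted p just under the threshold of 0.05. Its call was lost under RLE scaling (0.0631), library totals alone (0.171) and limma-voom (0.0974), and without Aire-KO replicate 1 or 2 (0.113 and 0.296) or WT replicate 1 or 2 (0.31 and 0.0867) of the spermidine groups.

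In Aire-GFP+ cells Gadd45a stood at 12.3, 14.6 and 13.2 CPM in WT and 43.1 and 61.4 in Aire-KO (3.9-fold, log2 1.96 ± 0.203, adjusted p = 0.000286). It was not called in mTEChi, where the log2 changes were 0.51 and 0.56, and it shares 859 bases with E230016M11Rik on the other strand, which this protocol without strand cannot tell apart. The remaining calls in Aire-GFP+ cells were Ei24, an endoplasmic reticulum protein gene (1.94-fold higher, adjusted p = 0.00541), Sesn2 (2.71-fold lower, 0.00956), Pidd1 (2.05-fold lower, 0.0194) and the damage recognition gene Xpc (1.82-fold lower, 0.029). Ei24 and Sesn2 overlap other gene models by 3519 and 6089 bases. The Sesn2 call was lost without Aire-KO replicate 1 (0.0732). The Pidd1 call was lost without Aire-KO replicate 1 or 2 (0.06 and 0.0976) or WT replicate 2 (0.0699). The Xpc call was lost without Aire-KO replicate 1 or 2 (0.0789 and 0.129) or WT replicate 2 or 3 (0.0929 and 0.0673).

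By role, against 10.3, 9.11 and 41.3% of all genes called in either direction, the stress and metabolism genes had 3, 2 and 2 of 6 called higher in PBS, spermidine and Aire-GFP+ cells, and 0, 0 and 1 lower. The 9 death genes had 1 higher and 2 lower, 1 and 1, and 2 and 3. Cdkn1a and Mdm2 were called in none of the 3 sets: the log2 changes were -0.2, -0.32 and -0.17 for Cdkn1a and 0.2, 0.32 and -0.02 for Mdm2. In all, 15 of the 30 genes were called in none of the 8 comparisons made here, among them Cdkn1a, Mdm2, Bbc3, Btg2, Ccng1 and Sesn1. Signs were the same in both mTEChi sets for 27 of the 30 genes (90%, against 74.3% of all genes) and in all 3 sets for 18 (60%, against 55.3%).

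**Figure D4:**
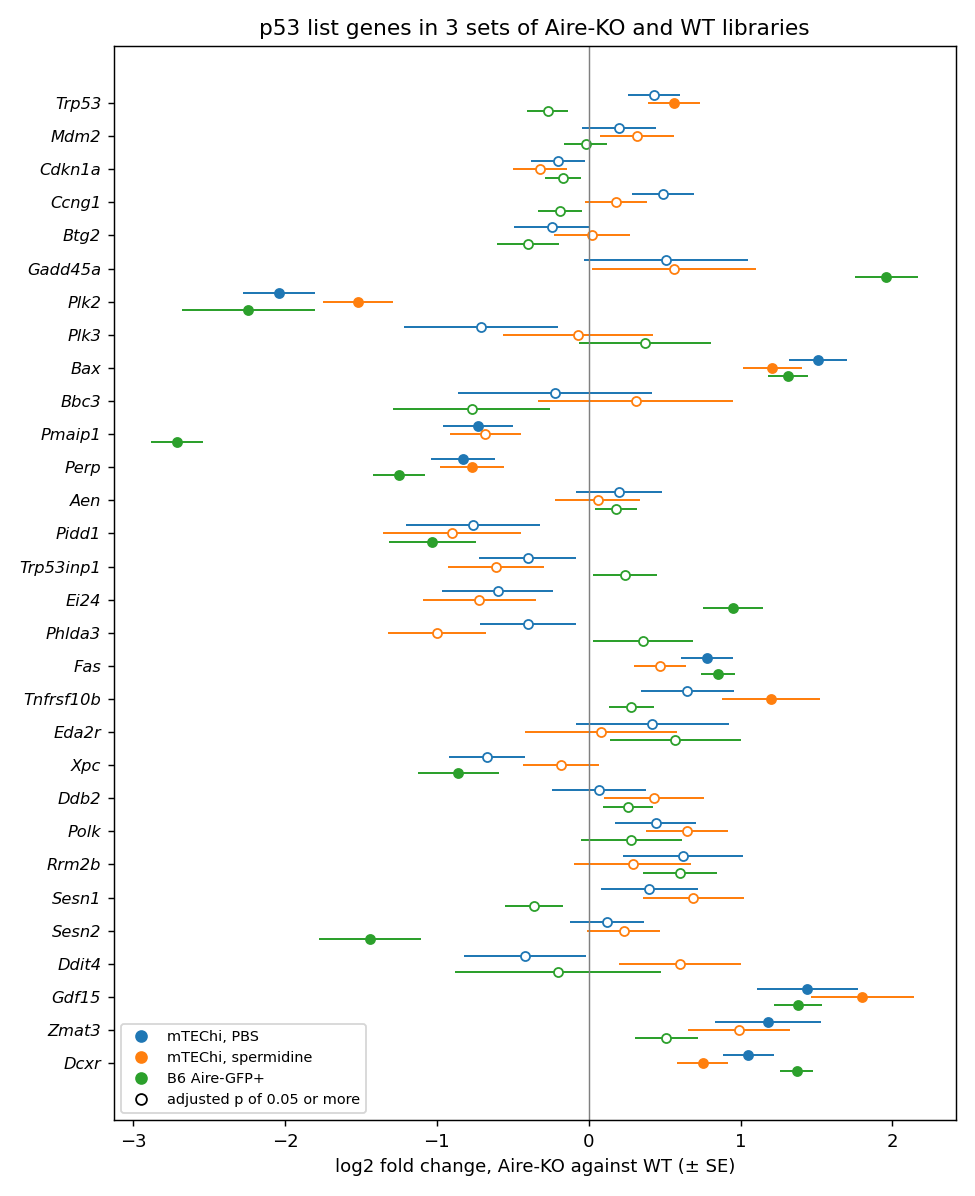
log2 fold change of each list gene, Aire-KO against WT, with its standard error in 3 sets of libraries that share none; filled points have an adjusted p under 0.05. Bax, Dcxr and Gdf15 lie above 0 and Plk2 and Perp below 0 in all 3 sets.

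Transcript estimates in Aire-GFP+ cells added what the gene sums do not show. They were looked at after the gene values were seen, and they carry no test. The Mdm2 gene level overlapped between genotypes in CPM (96.2, 120.8 and 119.4 in WT, 107.8 and 113.5 in Aire-KO). In TPM, which is not TMM-scaled and depends on the lengths of the transcripts counted, it did not: 45 to 60 in WT, and 34.7 and 35.9 in Aire-KO. Mdm2 was not alone in this: Cdkn1a, Ccng1 and Btg2 also overlapped in CPM and were lower in TPM in both Aire-KO libraries. For Ccng1 and Btg2, 1 transcript held 100% of the TPM. Aen, Ddb2 and Tnfrsf10b even went opposite ways in the 2 units, without overlap in either. Aen stood at 62.6 and 66.3 CPM in Aire-KO and 52.4 to 59.4 in WT, but at 31.8 and 32.6 TPM against 42.1 to 47.3. A lower gene TPM in Aire-KO is therefore not particular to Mdm2. For Cdkn1a TPM was 198 to 231 in WT, and 154 and 151 in Aire-KO. The coding transcript Mdm2-201 was estimated at 11, 39.1 and 33.2 TPM in WT and 1.74 and 0 in Aire-KO. Mdm2-209, annotated as a target of nonsense-mediated decay, was estimated at 6.89, 2.48 and 2.21 TPM in WT and 28.7 and 29.5 in Aire-KO, or 3.68 to 15.3% of Mdm2 TPM in WT and 82.1 to 82.7% in Aire-KO. Relative to Mdm2-201 it lacks the first exon (chr10:117710552-117710758, 207 bases) and an inner exon of 97 bases (chr10:117695953-117696049). The protein product was not measured.

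Cdkn1a and Pmaip1 showed unequal changes as well. Cdkn1a-202, which begins at the upstream start whose promoter is printed above, was estimated at 113, 112 and 72.8 TPM in WT and 106 and 113 in Aire-KO. The short Cdkn1a-203 (chr17:29097900-29099577) was estimated at 50.4, 50.1 and 64 TPM in WT and 6.59 and 6.61 in Aire-KO, which is 21.7 to 32.3% of Cdkn1a TPM against 4.28 to 4.39%. Pmaip1-201 was estimated at 55.4, 53.1 and 60.3 TPM in WT and 1.98 and 1.17 in Aire-KO, while Pmaip1-203 stood at 13.3, 0 and 2.43 against 4.78 and 6.33. Over genes of at least 10 TPM with 2 or more transcripts, the leading transcript differed between all WT and all Aire-KO libraries in 2 of 16 list genes (Mdm2 and Pmaip1, 12.5%) and in 457 of 6399 genes (7.14%). These estimates depend on the effective lengths, which differ by genotype as given above.

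**Figure D5:**
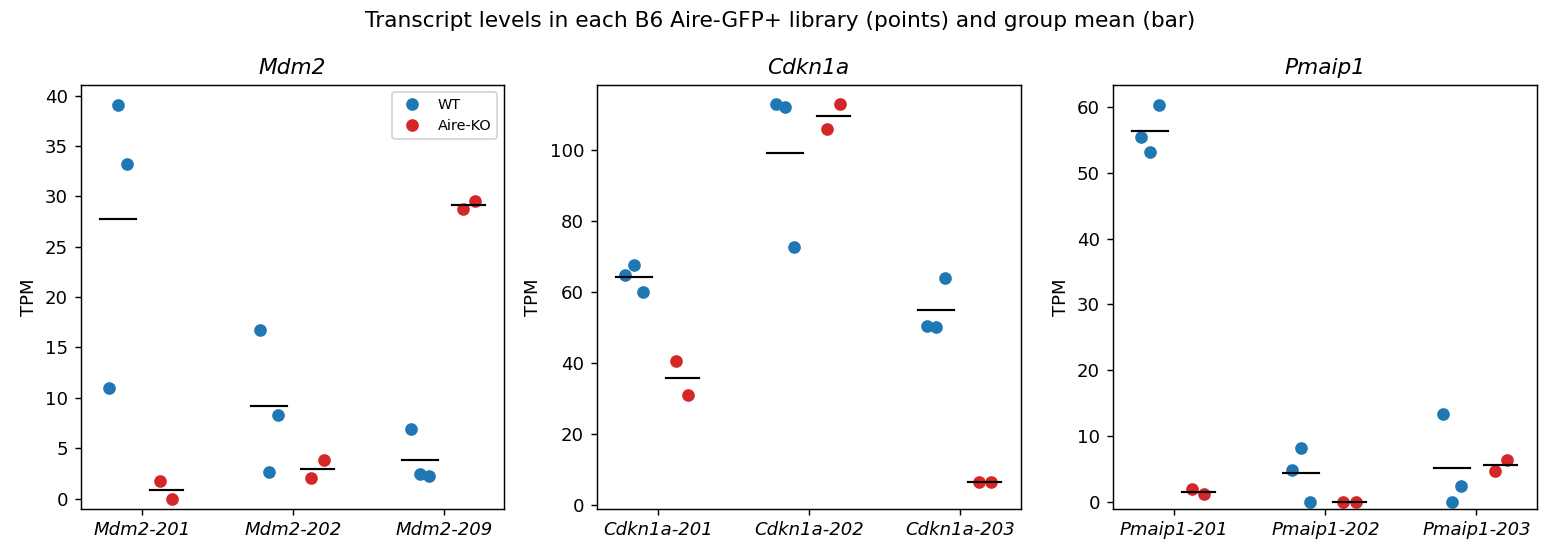
TPM of 3 transcripts each of Mdm2, Cdkn1a and Pmaip1 in the 3 WT and 2 Aire-KO libraries of B6 Aire-GFP+ cells (points), with group means (bars). Mdm2-209 is at 28.7 and 29.5 TPM in Aire-KO and at most 6.89 in WT.

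The lists around p53 held further genes that moved with Aire. Rad50, part of the break-sensing MRN complex, was higher in all 3 sets (3.97-, 3.38- and 4.35-fold, adjusted p = 3.09e-06, 8.51e-06 and 3.07e-05). Of the 21 tested regulators upstream of p53, 2 were called higher and 0 lower with PBS. With spermidine 2 and 0 were called, and in Aire-GFP+ cells 6 and 3. Over all genes 10.3, 9.11 and 41.3% were called in either direction. Sfn, the epithelial p53 target 14-3-3 sigma, was lower in all 3 (1.68-, 2.33- and 3.39-fold, adjusted p = 0.00198, 0.000119 and 0.000344). Among 24, 24 and 23 tested further p53 targets, 1 higher and 1 lower, 2 and 2, and 2 and 7 were called, against 10.3, 9.11 and 41.3% of all genes in either direction. The survival gene Bcl2l1 was higher in both mTEChi sets (log2 0.96 and 1.05) and lower in Aire-GFP+ cells (-0.96), all called. Its list of 15 BCL2 family and caspase genes had 1 higher and 2 lower, 1 and 1, and 4 and 2 called in the 3 sets. In Aire-GFP+ cells, where 22.3% of all genes were called lower and 19.0% higher, the proliferation list had 9 of 20 genes called lower and 0 higher, and the immediate early list 6 of 12 lower and 1 higher. In both mTEChi sets, where 10.3 and 9.11% of all genes were called, the proliferation list had 0 calls. The difference between the sets was not tested, since the tables were made and fitted apart.

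Spermidine and Nfe2l2 left the list without a call. With spermidine against PBS, 0 of 30 list genes were called in WT cells (0 of all genes, 0.0%) and 0 in Aire-KO cells (1 gene of all, 0.00543%) by edgeR, and DESeq2 called 0 list genes in both. At an unadjusted p under 0.05, the damage recognition gene Ddb2 (log2 -0.74) and Tnfrsf10b (-0.72) were lower in WT cells, and Plk2 was higher in Aire-KO cells (32.5 and 25.6 to 46.6 and 44.5 CPM, log2 0.66 ± 0.242, adjusted p = 1). These are 2 and 1 of 30, against 3.85 and 4.12% of all genes. The spermidine effect did not differ between genotypes for any list gene by the test of the difference itself (0 of 30 by edgeR and by DESeq2, against 0.0% of all genes, and 0 of 30 at an unadjusted p under 0.05, against 3.36%). In Foxn1-cre mice 0 of 30 list genes were called for Nfe2l2 fl/fl against Nfe2l2+/+ by edgeR and by DESeq2 (0.0% of all genes). Ccng1 was the 1 list gene with an unadjusted p under 0.05 (73.5 and 107.9 CPM in wt, 56.6 and 70.2 in flox, log2 -0.51), against 5.28% of all genes.

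Levels also differed between the WT or control groups of the separate experiments. This is a description without a test, since experiment, treatment vehicle and the Foxn1-cre genotype of the Nfe2l2 wt group cannot be told apart. Over all 16 mTEChi libraries, treated and mutant ones included, Gdf15 ranged most, from 2.98 CPM with topotecan to 67.3 in Aire-KO spermidine cells (22.6-fold). Its lowest count among them was 9 reads. Rrm2b came next, from 4.95 in Nfe2l2 flox to 47.7 in Aire-KO PBS cells (9.65-fold). Plk2 ran from 25.6 in Aire-KO PBS cells to 152.7 with topotecan (5.97-fold). Between the control groups, Rrm2b stood at means of 22.5, 25.7 and 8.89 CPM in WT PBS, DMSO and Nfe2l2 wt groups, and Cdkn1a at 243.2, 183.8 and 363.6. Over the same 16 libraries Xpc (1.99-fold), Trp53 (2.01-fold) and Btg2 (2.04-fold) ranged least.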

How the data were processed

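Per the submitters' processing notes, reads were handled with STAR, featureCounts, kallisto, TopHat2 2.1.1 and SAMtools 1.3.1 on mm10, with no role stated for each. The authors deposited raw counts per gene for mTEChi, and kallisto expected counts and TPM per transcript for Aire-GFP+ cells. Of 118489 transcripts, 116816 matched GENCODE M21 and their estimated counts were summed to 35999 symbols and rounded; the others held 0.541 to 0.578% of counts. All 16 mTEChi libraries entered 1 edgeR 4.0.16 fit (R 4.3.3, TMM, filterByExpr) and the 5 B6 libraries another, with calls at adjusted p under 0.05. Alternatives were other scaling, no filter, DESeq2 1.42.0, limma-voom (limma 3.58.1), the replicate block, single experiments and leaving out each library. Steps were tested on simulated data, and the share of changed genes recovered is given with the topotecan counts. Intervals cover the spread between libraries. All 30 genes are accounted for: called genes get values by library (the 8 smallest p where more were called), as do Trp53, Mdm2, Cdkn1a, Bax, Bbc3 and Pmaip1 for topotecan; other lists give up to 4 called genes each. Members and lists were chosen with earlier results of these data known. NOD and F1 libraries were not used here.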

Additional observations from a re-analysis of the deposited data

Results flagged for a closer look

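Some list genes moved one way in every Aire-KO library of an mTEChi set and the opposite way in every Aire-KO library of Aire-GFP+ cells. The difference itself was not tested, because the tables were made by different counting and fitted apart. Trp53 had log2 changes of 0.43 with PBS and 0.56 with spermidine, and -0.27 in Aire-GFP+ cells. Sesn2 had 0.12 with PBS and 0.23 with spermidine, and -1.44 in Aire-GFP+ cells. Sesn1 and Bbc3 had 0.69 and 0.31 with spermidine, and -0.36 and -0.77 in Aire-GFP+ cells. Phlda3 had 0.36 in Aire-GFP+ cells, -0.4 with PBS and -1 with spermidine. Ei24 had 0.95 in Aire-GFP+ cells and -0.72 with spermidine. By the default fit, the mTEChi call among these values was that of Trp53 with spermidine, and the Aire-GFP+ calls were those of Sesn2 and Ei24. The sign of Phlda3 in Aire-GFP+ cells, and that of Sesn2 with PBS, changed with the scaling.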

How the results depend on the processing

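With topotecan, limma-voom and the fit of this experiment alone each gave 0 list genes, as did each fit with 1 library left out (0 to 0), against 1 by default. Leaving out a library gave 3 to 6 list genes in the PBS Aire-KO comparison (8 by default), 2 to 4 with spermidine (7 by default, 4 in limma-voom) and 9 to 12 in Aire-GFP+ cells (12 by default). These fits have fewer libraries and another filter. Library totals alone gave 18 in Aire-GFP+ cells. Over all genes, topotecan gave 120 calls by default. Other settings gave 1, in the fit of the DMSO and topotecan libraries alone, to 1006, without the filter on low counts. The default fit shares its estimate of the spread over all 16 mTEChi libraries. No list gene was called in the spermidine and Nfe2l2 comparisons under any setting run (0 to 0). Values under alternatives were labelled only for list genes with an unadjusted p under 0.05 by default in that comparison. Of these values 520 kept their side of the threshold, 53 lost the call and 10 gained it, and none was reversed. The calls that library totals alone added in Aire-GFP+ cells fell on genes outside this count. The same settings were applied, after seeing the data, to 6 named genes outside the list: Rad50, Sfn, Bcl2l1 and Krt5 kept their calls in all of them, and Aire and H2-Ab1 lost theirs with topotecan as given above. Ranked by CPM in place of TPM, 9 of the 10 highest list genes stayed among the 10 highest. The deviations of same-numbered libraries correlated at -0.058 to 0.219 in the spermidine experiment, 0.085 with topotecan and 0.327 with Nfe2l2. In Aire-GFP+ cells they correlated at 0.05 and 0.072. In groups of 2 the deviations of the libraries mirror each other, so these values cannot exclude that the numbers pair libraries. The default fit used no pairing. With the replicate block, list calls were 1 with topotecan, 9 in PBS Aire-KO, 7 in spermidine Aire-KO, 11 in Aire-GFP+ cells and 0 in the others, and the block ended the call of Xpc in Aire-GFP+ cells (adjusted p = 0.066) and added that of Trp53 in PBS Aire-KO cells (0.0337). Genes of few reads, such as Bbc3 and Plk3, and Gdf15 where it was lowest, are limited by depth.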

Other observations

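Stress programmes next to p53 were also counted in the Aire-KO comparisons. Of the tested genes of the ATF4 stress response, which answers amino acid shortage and misfolded protein, 1 of 9 was called higher with PBS, 2 of 9 with spermidine and 4 of 10 in Aire-GFP+ cells, with 0, 0 and 1 lower. Over all genes 10.3, 9.11 and 41.3% were called in either direction in these sets. The median log2 changes of the ATF4 list were 0.12, 0.71 and 0.75. The NRF2 targets, genes of the antioxidant response, had 1 higher and 1 lower of 8 with PBS, 0 and 0 with spermidine, and 3 and 2 in Aire-GFP+ cells. The glucocorticoid response list had 1 higher and 1 lower of 7 in both mTEChi sets, and 2 and 1 of 6 in Aire-GFP+ cells. With topotecan all 3 lists had 0 calls, and their medians were -0.12, -0.32 and 0.06.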
